A study of Mus musculus with 4 samples.

Results

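The mitosis and spindle genes examined here are 32 named genes of G2 and M phase, taken by symbol from the first column of the count files. All 32 were found among the 24015 genes listed, and all 32 were among the 14259 genes with enough counts to be tested. RNA was sequenced from mouse embryoid bodies, balls of differentiating stem cells grown in suspension. The lines are labelled as coming from embryos of an outbred strain, homozygous for the Trim33-flox allele and carrying the UbcCreERT2 transgene, a Cre recombinase driven by a ubiquitin promoter and activated by tamoxifen. Before differentiation the lines grew without feeders in LIF and 2i. Addition of 4OH-Tamoxifen on day 4 produced the Trim33-deficient bodies, and both groups were collected on day 7. Each group has 2 libraries, described as independent pairs. Control is labelled wild type, and whether Control bodies carried the same alleles or received 4OH-Tamoxifen is not stated. Whether the pairs came from separate cell lines is not stated either, so a p-value speaks only of the spread seen among the 4 libraries, which may be technical.

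Entry into mitosis is driven by the kinase CDK1 bound to cyclins A and B. Polo-like and Aurora kinases then mature the spindle poles and correct faulty attachments, while kinetochores tie chromosomes to spindle fibres. The spindle checkpoint holds back the anaphase-promoting complex until every chromosome is attached, and separase then cuts the cohesin that joins sister chromatids. The genes for these proteins are transcribed late in the cell cycle, and their RNA is widely used as a measure of how many cells are dividing. In a bulk sample, fewer dividing cells and less of these RNAs per dividing cell cannot be told apart.

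Many late cell cycle promoters carry a CHR (cell cycle genes homology region) close to the transcription start and CCAAT boxes just before it. RefSeq promoter windows (GRCm38.p6, 250 bases before to 50 after each start) were matched by symbol for 27 of the 32 genes. Aurkb, Ccna2, Incenp, Kif20a and Tpx2 were not matched. Prc1 had 2 windows, which overlap, so there were 28 windows. Shown first are the 4 matched genes whose unadjusted p was under 0.05 in the comparison of the groups, then 2 kinetochore genes whose fold change was near 0. Since these genes were picked by their result, they cannot show whether motifs go with fold change. Racgap1 (log2 fold change 0.021), not shown, had both a CHR and CCAAT, and Nusap1 (−0.28), not shown, had neither. The sequences are written 5′ to 3′ on the strand of the gene. Matches to the CHR (TTTGAA or TTCGAA) and to CCAAT, on either strand, are in capitals.
Hmmr, chr11:40733388-40733687, minus strand: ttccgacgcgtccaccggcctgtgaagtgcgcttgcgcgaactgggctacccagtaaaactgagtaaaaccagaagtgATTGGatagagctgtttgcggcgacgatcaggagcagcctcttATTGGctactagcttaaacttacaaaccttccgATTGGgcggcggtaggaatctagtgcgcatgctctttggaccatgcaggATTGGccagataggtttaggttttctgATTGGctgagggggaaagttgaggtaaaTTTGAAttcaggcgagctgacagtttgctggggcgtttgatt
Ccnb2, chr9:70421505-70421804, minus strand: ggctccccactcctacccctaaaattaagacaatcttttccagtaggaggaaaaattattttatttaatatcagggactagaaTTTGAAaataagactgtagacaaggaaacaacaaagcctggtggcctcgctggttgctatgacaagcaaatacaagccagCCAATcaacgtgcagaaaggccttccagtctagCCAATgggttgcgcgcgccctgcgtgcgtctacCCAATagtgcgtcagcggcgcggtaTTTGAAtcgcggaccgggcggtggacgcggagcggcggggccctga
Bub1, chr2:127831810-127832109, minus strand: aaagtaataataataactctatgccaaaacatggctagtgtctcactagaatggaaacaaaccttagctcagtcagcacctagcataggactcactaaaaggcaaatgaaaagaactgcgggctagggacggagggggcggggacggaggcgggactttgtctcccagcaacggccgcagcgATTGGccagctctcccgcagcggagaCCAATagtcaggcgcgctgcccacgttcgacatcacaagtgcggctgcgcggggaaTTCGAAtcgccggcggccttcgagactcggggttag
Prc1, chr7:80294201-80294500, plus strand: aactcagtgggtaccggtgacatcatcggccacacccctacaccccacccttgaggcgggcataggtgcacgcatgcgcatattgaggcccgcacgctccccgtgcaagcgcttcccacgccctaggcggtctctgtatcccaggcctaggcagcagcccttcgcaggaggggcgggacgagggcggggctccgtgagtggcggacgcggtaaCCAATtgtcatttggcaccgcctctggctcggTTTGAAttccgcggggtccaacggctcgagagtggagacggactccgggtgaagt
Ndc80, chr17:71526808-71527107, minus strand: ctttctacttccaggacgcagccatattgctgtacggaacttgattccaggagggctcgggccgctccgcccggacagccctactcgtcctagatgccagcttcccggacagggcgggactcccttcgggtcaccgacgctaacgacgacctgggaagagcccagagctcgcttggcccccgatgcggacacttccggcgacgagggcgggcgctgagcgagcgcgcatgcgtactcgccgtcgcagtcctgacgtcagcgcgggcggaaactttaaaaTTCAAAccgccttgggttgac
Nuf2, chr1:169531415-169531714, minus strand: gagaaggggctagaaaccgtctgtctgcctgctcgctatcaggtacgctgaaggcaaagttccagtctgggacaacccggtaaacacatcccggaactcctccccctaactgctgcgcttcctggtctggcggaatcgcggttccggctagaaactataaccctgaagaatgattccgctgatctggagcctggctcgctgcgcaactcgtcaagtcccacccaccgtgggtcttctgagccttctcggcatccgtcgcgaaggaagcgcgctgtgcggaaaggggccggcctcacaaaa

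Of the 28 windows, 21 held a CHR (75%, Wilson 95% interval 56.6% to 87.3%), as did 19.2% of all 32851 promoter windows in the table. Both Prc1 windows hold the same matches, which are thus counted again, so the windows are not all independent. By gene, 20 had a CHR and 7 had none. CCAAT was found in 22 of 28 (78.6%, against 37.4% of all windows), and 13 held 2 or more (46.4%, against 11.7%). Both motifs stood together in 20 windows (71.4%, against 7.52%). In Hmmr, 5 CCAAT boxes began at −172, −129, −96, −47 and −20 from the start and the CHR at 9. In Ccnb2, 3 boxes at −87, −54 and −21 preceded a CHR at 5, and a second CHR lay at −167. Bub1 had its boxes at −68 and −42 and the TTCGAA form of the CHR at 15, and the first Prc1 window a box at −37 and the CHR at −5. Ndc80 held a CHR at 30 and no CCAAT, and Nuf2 neither motif. These are matches of letters and show no binding. Exact E2F motifs (TTTCCCGC, TTTGGCGC, TTTCGCGC or TTTGCCGC on either strand) were in 1 window, that of Cdk1, and in 2.26% of all windows.

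**Figure D1:**
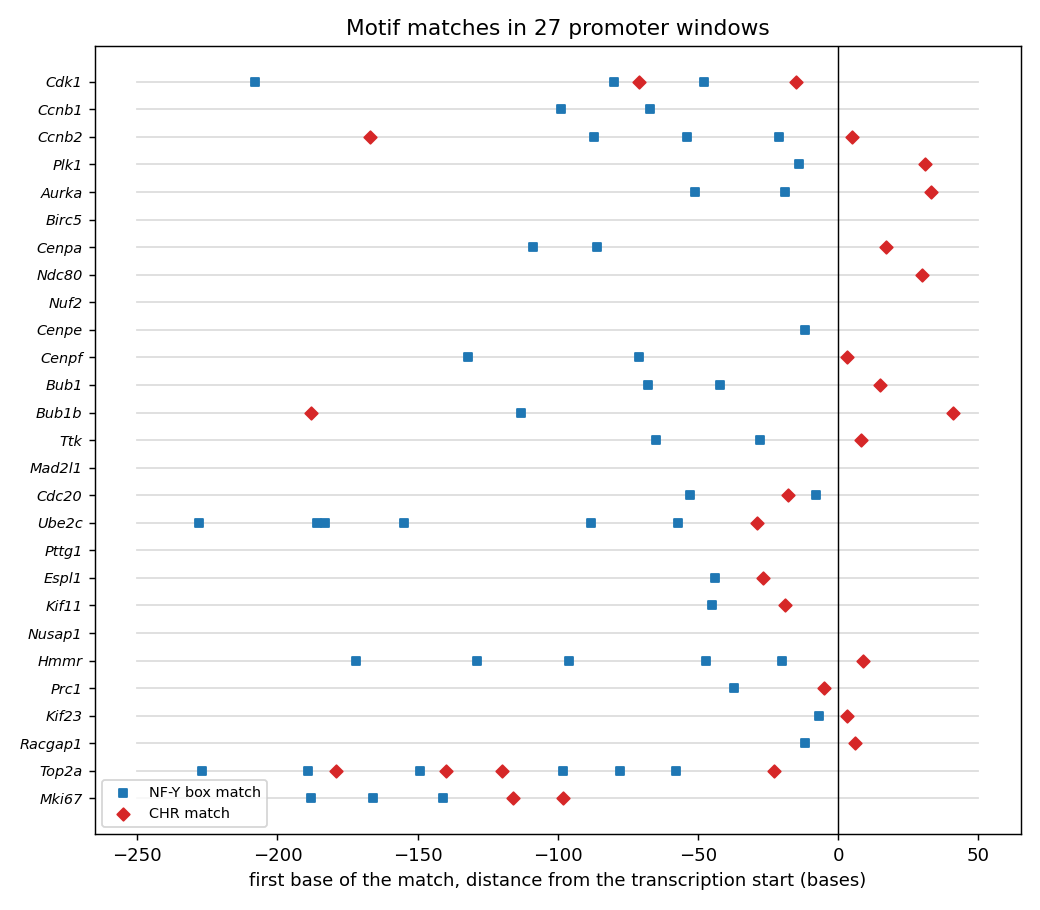
CHR matches (red) and CCAAT matches, drawn as NF-Y boxes (blue), along the promoter windows of the 27 matched genes, with the distance in bases of the first base of each match from the transcription start on the x axis and 1 line per gene (the first of the Prc1 windows). Over all 28 windows, 22 of 28 CHR matches and 33 of 49 CCAAT matches began within 100 bases before or 50 after the start.

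The comparison asks whether RNA of these genes differed between Control and Trim33-deficient embryoid bodies. The levels were slightly lower in Trim33-deficient bodies for nearly all of them, and no gene passed the test. Of 32 genes, 30 had a log2 fold change (Trim33-deficient over Control) below 0, as did 50.2% of all genes tested. Their median was −0.19, against −0.0014 for all genes tested, and the values ran from −0.44 for Hmmr to 0.021 for Racgap1. The groups did not overlap and Trim33-deficient was lower in 21 of 32 (65.6%), against 21.4% of all genes tested, and the reverse held for 0 (19.3% of all). Above 0 were 2 of 32 (49.8% of all). Levels of these genes can move together, so such counts are not 32 separate observations. The median centred log2 CPM of the 32 was 0.039 and 0.138 in Control replicates 1 and 2. In Trim33-deficient replicates 1 and 2 it was −0.024 and −0.178. By this median, the nearest libraries of the 2 groups lay closer together than the replicates within either group.

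The edgeR quasi-likelihood test, adjusted over all 14259 genes, called 0 of the 32 genes lower and 0 higher, with adjusted p from 0.544 to 0.996. It called 0.014% of all genes lower and 0% higher. Its unadjusted p was under 0.05 for 5 of the 32 with a lower level (15.6%, against 4.78% of all genes tested) and for 0 with a higher one (against 3.06%). The 5 genes were Hmmr, Aurkb, Ccnb2, Bub1 and Prc1. DESeq2, edgeR's likelihood ratio test and limma voom also called 0. At an unadjusted p under 0.05 they gave 2, 1 and 5 lower genes of the 32 (6.25%, 3.1% and 15.6%). By the same rule 3.91%, 4.52% and 4.64% of all genes tested were lower. The excess over all genes thus varied with the tool, and the likelihood ratio test gave none. DESeq2 called 0.822% of all genes lower and 0.186% higher, and at an unadjusted p under 0.05 3.91% were lower and 2.85% higher. With the replicate number as a block, edgeR gave 6 lower and 0 higher of the 32 at an unadjusted p under 0.05, against 6.07% and 5.48% of all genes. The authors' deposited table lists 84 genes, where the count files list 24015, and holds 0 of the 32. With so few genes listed, that 0 says little about the 32. Summed over the 32 genes, the level was 5806 and 6291 CPM (counts scaled to library size, with TMM factors) in Control and 5516 and 5079.5 CPM in Trim33-deficient bodies. Top2a held the largest part of that sum in every library.

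**Figure D2:**
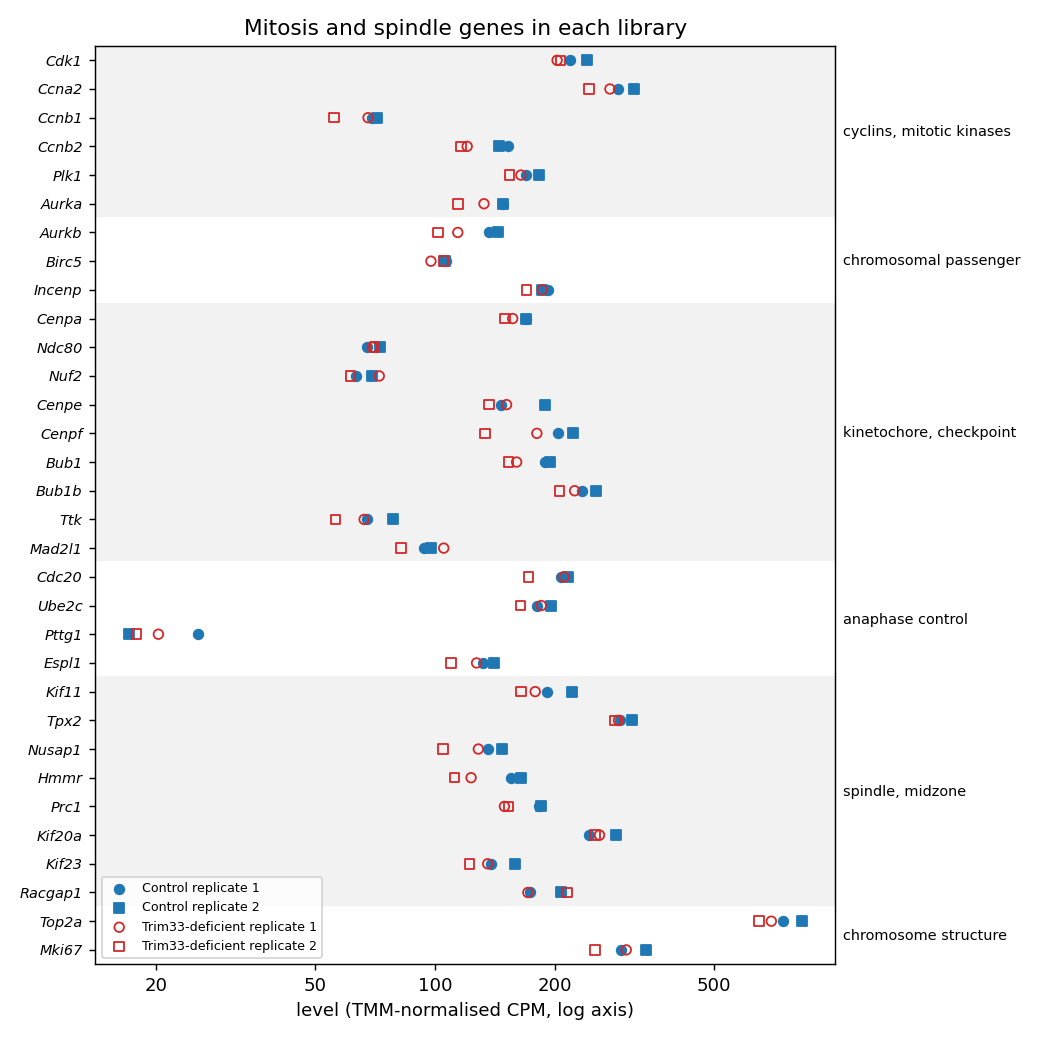
Level of each gene in TMM-normalised CPM (log axis) in the 4 libraries, with filled blue marks for Control, open red marks for Trim33-deficient, circles for replicate 1 and squares for replicate 2, grouped by role. The red marks lie to the left of both blue marks for 21 of 32 genes, most widely for Hmmr, Ccnb2, Prc1, Aurkb and Bub1, and overlap the blue ones for the other 11.

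In what follows, values stand in the order of replicates 1 and 2 of each group. All 6 cyclin and kinase genes had lower Trim33-deficient levels without overlap of the groups, as did 21.4% of all genes tested. The 6 log2 fold changes ran from −0.33 to −0.14. Ccnb2, encoding cyclin B2, had 152 and 144 CPM in Control and 120.4 and 116 CPM in Trim33-deficient bodies. Its log2 fold change was −0.33 (SE 0.10), with an edgeR adjusted p of 0.596. The gap between the groups was wider than the gap within either one. Ccnb1, encoding cyclin B1, the main partner of CDK1 at mitotic entry, had 69.4 and 71.6 CPM in Control and 67.9 and 55.8 CPM in Trim33-deficient bodies. Here Trim33-deficient replicate 1 lay close to the Control values and the fold change was −0.19 (SE 0.14). Its value was −0.33 without Trim33-deficient replicate 1 and −0.049 without Trim33-deficient replicate 2. Cyclin A2, which acts in S phase and early mitosis, is encoded by Ccna2, at 288 and 314 against 274 and 243 CPM and a fold change of −0.22 (SE 0.12). In Ccna2, Trim33-deficient replicate 2 was the lowest library. Cdk1, the kinase gene, was at 218 and 239.6 against 202 and 206 CPM (−0.16, SE 0.11). Plk1, encoding the polo-like kinase of spindle poles and kinetochores, was at 169 and 182 against 164 and 154 CPM (−0.14, SE 0.11). Aurka, whose kinase matures the spindle poles, was at 148 and 148 against 133 and 114 CPM (−0.26, SE 0.12). In these 3 kinase genes the highest Trim33-deficient value was a little below the lowest Control value. Processed pseudogenes of Ccnb1 and Ccnb2 are annotated, so reads shared with these copies make their counts less certain.

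The chromosomal passenger complex releases wrong attachments at centromeres and later moves to the spindle midzone. Its kinase gene Aurkb had 136 and 144 CPM in Control and 114 and 102 CPM in Trim33-deficient bodies, a mean of 77.1% of Control. The log2 fold change was −0.38 (SE 0.11), with an edgeR adjusted p of 0.595, and the groups did not overlap. The genes of its partners had levels nearer to Control, though a difference in fold change between them and Aurkb was not tested. Birc5, encoding survivin, had 107 and 106 CPM in Control and 97.7 and 105 CPM in Trim33-deficient bodies, where Trim33-deficient replicate 2 nearly reached the Control values (−0.069, SE 0.11). Incenp, the scaffold of the complex, had 192 and 185 against 186 and 169.6 CPM, with overlapping groups and −0.089 (SE 0.11).

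Among 9 centromere, kinetochore and checkpoint genes, 8 lay below 0 (median −0.18), where 50.2% of all genes tested did. In 5 of the 9 the Trim33-deficient level was lower without overlap of the groups (21.4% of all). Between the replicate 1 libraries 5 of 9 log2 ratios were below 0, with a median of −0.022. Between the replicate 2 libraries 9 of 9 were, with a median of −0.30. Cenpf, a large kinetochore and spindle matrix protein gene, had 203 and 221 CPM in Control and 179.9 and 133 CPM in Trim33-deficient bodies. Trim33-deficient replicate 2 was far below the rest, and the fold change of −0.44 (SE 0.18) had an edgeR adjusted p of 0.648. It was −0.24 without that library and −0.66 without Trim33-deficient replicate 1. Bub1, a checkpoint kinase that also marks centromeres, had 189 and 194 CPM in Control and 160.1 and 153 CPM in Trim33-deficient bodies. Both Trim33-deficient values were well below both Control values, with −0.29 (SE 0.10) and an edgeR adjusted p of 0.618. Its relative Bub1b, encoding BUBR1, a part of the checkpoint inhibitor itself, was at 233 and 253 against 224 and 205 CPM (−0.18, SE 0.11). Ttk, whose kinase MPS1 starts checkpoint signalling, was at 67.5 and 78.4 against 66.4 and 56.4 CPM (−0.25, SE 0.15). The centromeric histone gene Cenpa was at 169 and 169 against 157 and 149.6 CPM (−0.14, SE 0.10). In each of these 3 genes the groups were apart, but Trim33-deficient replicate 1 lay near the lower Control value in Ttk.

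The remaining kinetochore genes had overlapping groups. Cenpe, a kinesin that carries chromosomes to the spindle equator, had 146 and 188 against 151 and 136 CPM. Its fold change of −0.22 (SE 0.16) was −0.020 without Control replicate 2, the single high library. Ndc80 and Nuf2 encode partners in the complex that grips microtubule ends. Ndc80 had 67.5 and 72.9 CPM in Control and 69.7 and 70.5 CPM in Trim33-deficient bodies. Nuf2 had 63.2 and 69.5 CPM in Control and 72.5 and 61.4 CPM in Trim33-deficient bodies. Fold changes were −0.0025 (SE 0.11) and 0.013 (SE 0.14), with 95% intervals of −0.30 to 0.29 and −0.36 to 0.38, which include the median of the 32 genes. Under other scalings both signs turned, with Ndc80 at 0.0052 under RLE scaling and Nuf2 at −0.019 under upper-quartile scaling. Mad2l1, encoding the checkpoint protein MAD2, had 93.9 and 97.6 against 105 and 82.2 CPM (−0.031, SE 0.16). In Nuf2 and Mad2l1, Trim33-deficient replicate 1 was the highest library and replicate 2 the lowest. Without the former the fold changes were −0.11 and −0.21, and without the latter 0.13 and 0.14.

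The 4 genes of anaphase control had fold changes from −0.20 to −0.11. Cdc20, the activator of the anaphase-promoting complex, had 207 and 215 CPM in Control and 211 and 171 CPM in Trim33-deficient bodies. Only Trim33-deficient replicate 2 stood apart, and the fold change of −0.14 (SE 0.14) was 0.0015 without it. Ube2c, the ubiquitin-conjugating enzyme gene of that complex, was at 180.1 and 196 against 185 and 164 CPM (−0.11, SE 0.12). Espl1, encoding separase, had groups that did not overlap, at 132 and 140.3 against 127 and 109 CPM (−0.20, SE 0.12). Pttg1, encoding securin, the inhibitor of separase, had the fewest counts of all 32 genes, 330 and 175 in Control against 281 and 209. Its levels were 25.5 and 17.1 against 20.3 and 17.8 CPM, with Control replicate 1 high and the other 3 together, and its fold change of −0.16 (SE 0.26) was 0.15 without that library.

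The 8 genes of spindle motors, assembly and midzone included the lowest fold change of the 32. Hmmr, encoding a spindle pole protein that helps to place TPX2, had 155 and 164 CPM in Control and 123 and 112 CPM in Trim33-deficient bodies. Control was at 159.7 ± 6.55 CPM and Trim33-deficient at 118 ± 7.88 CPM (SD, n = 2 each), 26.4% lower. The log2 fold change was −0.44 (SE 0.11), with an unadjusted 95% interval of −0.73 to −0.15 and an edgeR adjusted p of 0.544. Of all genes tested, 14% had a lower fold change than Hmmr. Prc1, which bundles microtubules of the midzone, had 182 and 184 CPM in Control and 149 and 153 CPM in Trim33-deficient bodies. These were the tightest groups among the 5 genes with an unadjusted p under 0.05, and the fold change was −0.28 (SE 0.10) with an edgeR adjusted p of 0.621. Nusap1, a microtubule-bundling protein gene, was at 136 and 147 against 128 and 105 CPM (−0.28, SE 0.14). Kif11, the motor gene that pushes spindle poles apart, was at 191 and 220.4 against 178 and 164 CPM (−0.26, SE 0.12). In both the groups did not overlap, and Trim33-deficient replicate 2 was lowest. Tpx2, the activator of Aurora A on the spindle, was closer to Control at 291 and 311 against 288 and 282 CPM (−0.079, SE 0.10).

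The remaining midzone and cytokinesis genes had fold changes on both sides of 0. Kif23 and Racgap1 encode the partners of centralspindlin, which directs the cleavage furrow. Kif23 had 138 and 159 against 136 and 122 CPM (−0.21, SE 0.13), with groups apart. Racgap1 had 173 and 207 against 171 and 214 CPM (0.021, SE 0.17), where both replicates 2 were the high libraries, and the sign turned to −0.013 under upper-quartile scaling. Leaving out each library moved it between −0.15 and 0.18. Kif20a, a midzone kinesin gene, was at 244 and 283 against 258 and 252 CPM (−0.047, SE 0.12), with Control replicate 1 the lowest library. Without Control replicate 2 it was 0.071. Whether the folds of any of these pairs of genes differ from each other was not tested.

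Both chromosome structure genes had the same direction. Top2a, encoding the topoisomerase that untangles sister chromatids, had 746 and 829 CPM in Control and 696 and 648 CPM in Trim33-deficient bodies, with the groups apart and a fold change of −0.23 (SE 0.13). Mki67, which encodes the proliferation antigen Ki-67 that coats mitotic chromosomes, had 292 and 338 CPM in Control and 301 and 252 CPM in Trim33-deficient bodies. In Mki67 the groups overlapped, since Trim33-deficient replicate 1 was above Control replicate 1, and the fold change was −0.19 (SE 0.15). Per kilobase of the longest GENCODE M21 transcript, Top2a was also the highest of the 32 genes in Control (151 CPM per kb), followed by Cdc20 (118), Ccna2 (102) and Ccnb2 (96.9). The lowest levels were those of Pttg1 (12.7) and Mad2l1 (12.7). This order depends on the transcript taken: per kilobase of the median coding transcript, Cenpa came first at 187 CPM per kb and Cenpf last at 19.1.

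**Figure D3:**
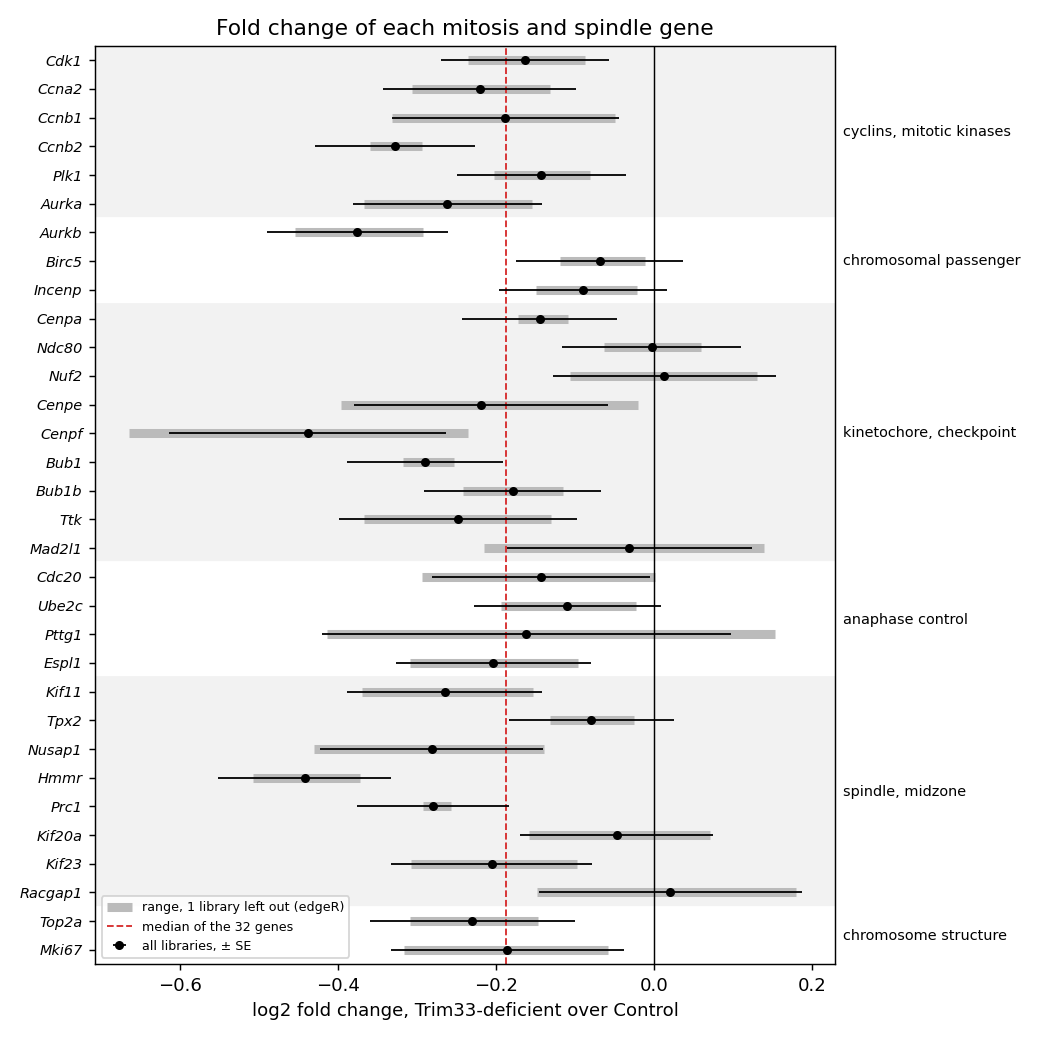
Log2 fold change of each gene (points) with its SE (bars) and the range of edgeR values when each library is left out in turn (grey), grouped by role. The points lie between −0.44 and 0.021, 30 of 32 left of 0, around a median of −0.19 (dashed).

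The size of the shared difference varied with the libraries compared. Taking libraries of the same number as pairs, the log2 ratio was below 0 for 24 of 32 genes in pair 1, with a median of −0.057, and for 30 of 32 in pair 2, with a median of −0.32. The medians over all genes tested were −0.0012 and 0.0056. In 27 of 32 genes the ratio was lower in pair 2. Lower in both pairs were 22 genes (68.8%, against 29.8% of all genes tested), higher in both 0 (against 30.3%), and 10 differed in direction. Control replicate 2 was the highest library for 23 genes and Trim33-deficient replicate 2 the lowest for 25. The median fold change of the 32 genes was −0.12 without Control replicate 2 and −0.12 without Trim33-deficient replicate 2, and −0.25 and −0.28 without the replicates 1 of these groups. With each left out, 27, 29, 31 and 30 of 32 genes were below 0, and edgeR called 0 each time. At an unadjusted p under 0.05 these 4 fits gave 0, 0, 2 and 2 lower genes of the 32, where 9.82%, 1.61%, 3.60% and 3% of all genes were lower by that rule.

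**Figure D4:**
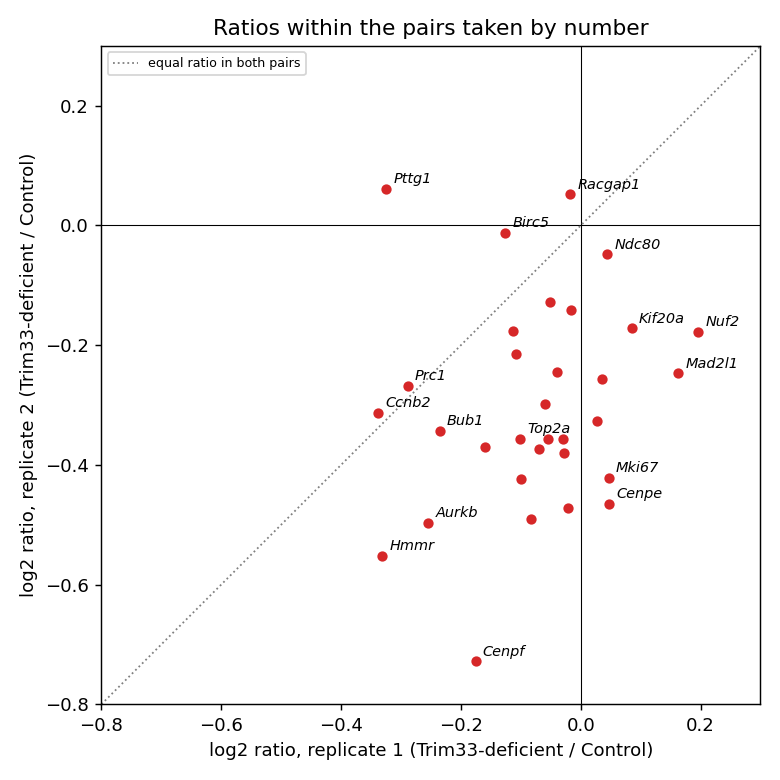
Log2 ratio of Trim33-deficient over Control in the replicate 1 libraries (x axis) and in the replicate 2 libraries (y axis) for each of the 32 genes (points), with equal ratios on the dotted line. Of the points, 27 lie below that line and 22 in the lower left, where both ratios are below 0.

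Genes around this module were followed in 6 further lists, together 185 tested genes. The edgeR quasi-likelihood test called 0 of them, as did DESeq2, edgeR's likelihood ratio test and limma voom. At an unadjusted p under 0.05, edgeR's quasi-likelihood test gave 13 lower (7.03%, against 4.78% of all genes tested) and 5 higher (2.70%, against 3.06%). DESeq2 gave 8 lower (4.32%, against 3.91%) and 2 higher (1.08%, against 2.85%). The likelihood ratio test gave 4 lower (2.16%, against 4.52%) and 2 higher (1.08%, against 2.86%). With limma voom, 13 were lower (7.03%, against 4.64%) and 6 higher (3.24%, against 3.10%). Other mitosis genes, 78 in all, came closest to the 32, with 61 below 0, a median of −0.14 and 42 with lower Trim33-deficient levels and no overlap (53.8%, against 21.4% of all genes tested). Their smallest p values were those of Cdca2, a chromatin protein of mitotic exit, at 104 and 106 against 81.6 and 80.1 CPM (−0.38, SE 0.10), and Hjurp, the chaperone that loads CENP-A, at 37.5 and 47.9 against 24.7 and 29.3 CPM (−0.66, SE 0.19). Subunits and inhibitors of the anaphase-promoting complex had a median above 0, at 0.058, and 7 of 17 below it. Cdc27, a core subunit, was at 127 and 133 against 159 and 163 CPM (0.31, SE 0.10), and the inhibitor gene Fbxo5 at 65.3 and 69.2 against 63.7 and 51.8 CPM (−0.22, SE 0.15).

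Transcription factors and pocket proteins that act on G2/M promoters had a median of 0.038, and 10 of 23 were below 0. Mybl2, encoding B-MYB, which activates CHR promoters, had 114 and 81.4 CPM in Control and 63.3 and 57.3 CPM in Trim33-deficient bodies, with the groups apart. Its fold change was −0.69 (SE 0.20), with an edgeR adjusted p of 0.563. Foxm1, the other main activator, had 147 and 159.6 against 161 and 150.1 CPM (0.020, SE 0.11). The MuvB core genes Lin9, Lin52 and Lin54, common to the activating and the repressing complex, had fold changes of 0.16, 0.25 and 0.068. The repressor genes Rbl1 and Rbl2, encoding p107 and p130, had 0.10 and 0.29, E2f4 −0.059, E2f1 −0.20 and E2f6 0.25. CDK1 activation control genes had a median of −0.11, with 11 of 16 below 0. Ccnf, encoding cyclin F, was at 263 and 226 against 191 and 191 CPM (−0.35, SE 0.12), and the checkpoint kinase gene Chek2 at 36.1 and 34.4 against 26.0 and 17.5 CPM (−0.70, SE 0.23).

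Genes of G1 had a median above 0, and those of DNA replication one near 0. G1 cyclins, CDKs and their inhibitors had a median of 0.12, 6 of 15 below 0, and 7 genes whose Trim33-deficient libraries both lay above Control (46.7%, against 19.3% of all genes tested). Cdkn1a, encoding the CDK inhibitor p21, had 148 and 145 CPM in Control and 184 and 238 CPM in Trim33-deficient bodies. Both Trim33-deficient values were above both Control values, and the fold change was 0.53 (SE 0.16) with an edgeR adjusted p of 0.579. Ccne2, encoding cyclin E2, had 35.2 and 37.8 against 49.4 and 61.6 CPM (0.60, SE 0.16). The median of 36 DNA replication genes was −0.031, and 22 were below 0. Pold1, a DNA polymerase subunit gene, was at 198 and 212 against 158 and 161 CPM (−0.36, SE 0.10), and the thymidylate synthase gene Tyms at 45.9 and 53.1 against 65.3 and 63.4 CPM (0.38, SE 0.13). Whether the lists differ from each other was not tested.

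**Figure D5:**
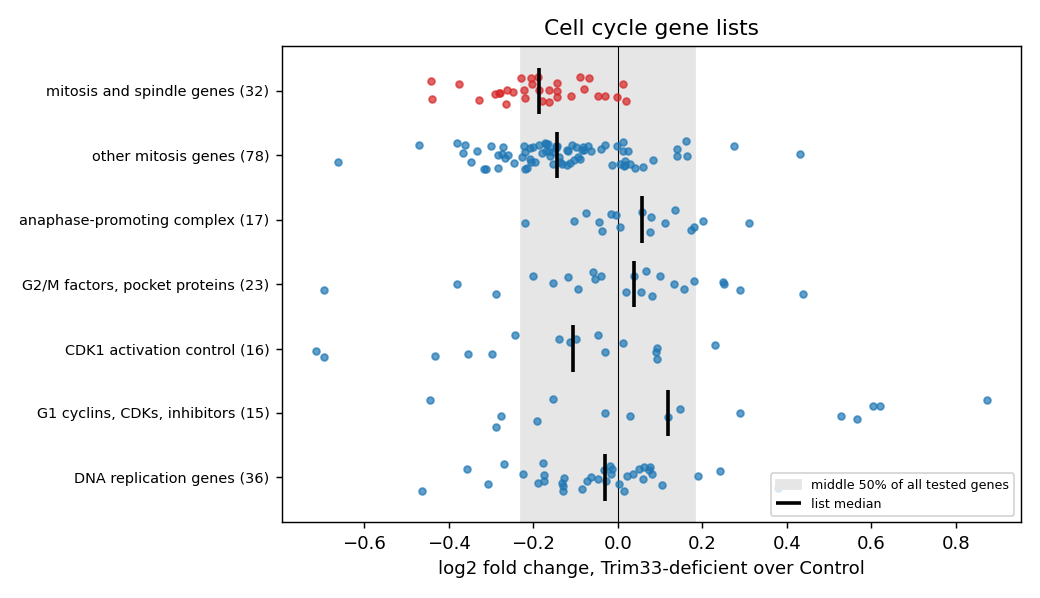
Log2 fold changes (x axis) of the genes of each cell cycle list (1 point per gene, number of genes in brackets, black bar for the list median), with the middle 50% of all tested genes in grey. The medians of the mitosis and spindle genes (−0.19) and of other mitosis genes (−0.14) lie left of 0 and inside the grey band, and that of DNA replication genes at −0.031.

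The promoter motifs were set beside the fold changes as a description. The median was −0.20 for the 20 of the 32 genes with a CHR and −0.16 for the 7 matched genes without one. By CCAAT it was −0.21 for 21 genes with and −0.050 for 6 without. Hmmr and Ccnb2, with 5 and 3 CCAAT boxes before a CHR, had −0.44 and −0.33, while Racgap1, with both motifs, had 0.021, and Nusap1, with neither, −0.28. Top2a and Ube2c, with 6 CCAAT matches each and also a CHR, had −0.23 and −0.11. Across the genome, 691 tested genes other than the 32 had both motifs in a window. Of them 56.0% were below 0, against 50.2% of all genes tested, with a median of −0.047. Other mitosis genes were not taken out of these 691.

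Embryoid bodies hold many cell types, and visceral endoderm was the only marker list with a gene called by edgeR. All 8 visceral endoderm markers were below 0 (1, Cubn, called by edgeR and 8 by DESeq2), with a summed level of 917 to 976 CPM in Control and 58.4 to 63.0 CPM in Trim33-deficient bodies and a median log2 fold change of −4.23. In the other lists edgeR called 0 genes and DESeq2 1 (a pluripotent cell marker, lower), so their values are given as a description. Pluripotent cell markers, 6 of 6 below 0, summed to 345 to 410.2 CPM in Control and 233 to 258 CPM in Trim33-deficient bodies, and neural progenitor markers, 6 of 6 below 0, to 333 to 644 CPM in Control and 291 to 352 CPM in Trim33-deficient bodies. Mesenchyme and smooth muscle markers, 6 of 6 above 0, summed to 1033 to 5642 CPM in Control and 3579 to 9608 CPM in Trim33-deficient bodies, and cardiomyocyte markers, 6 of 6 above 0, to 175 to 417 CPM in Control and 283 to 1358 CPM in Trim33-deficient bodies. The groups overlap in the sums of neural progenitor, mesenchyme and cardiomyocyte markers. The cardiomyocyte markers had a median log2 ratio of 3.07 in pair 1 and −0.69 in pair 2, where 5 of 6 were below 0, and the pluripotent cell markers −1.14 and −0.015. The summed level of the 5 blood markers ranged from 3.86 to 178 CPM over the libraries. Endothelial, primitive streak and definitive endoderm markers had 3 of 4, 4 of 4 and 3 of 3 genes below 0. The endothelial sums overlapped, at 172 to 331 CPM in Control and 205 to 225 CPM in Trim33-deficient bodies. Endothelial markers had a median log2 ratio of 1.06 in pair 1 and −0.50 in pair 2, with 1 of 4 and 4 of 4 below 0. The part of these values in the lower mitotic levels was not tested. No marker was at 0 in any library, and the lowest were Mixl1 and Klf1 at a mean of 0.660 and 0.902 CPM.

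The libraries held 10422738 to 13808837 counts in genes. Trim33 encodes a chromatin-bound E3 ligase that partners SMAD proteins. It had 93.0 and 109 CPM in Control and 43.8 and 42.3 CPM in Trim33-deficient bodies, a mean of 42.6% of Control, and the fold change was −1.23 (SE 0.13), with an adjusted p of 0.219 by edgeR and 1.75e-06 by DESeq2. The count covers the whole gene, not only the floxed part. Control replicate 1 stood apart from the other libraries, with correlations across genes of 0.932 to 0.952, against 0.967 to 0.978 among the rest. Exons of Ccna2, Cdc20, Kif20a, Nusap1, Prc1 and Ube2c overlap the neighbouring genes Exosc9, Elovl1, Cdc23, Oip5, Rccd1 and Tnnc2 on the opposite strand in GENCODE M21. The sources used here do not give whether counting used the strand, and without it reads of such neighbours cannot be told apart. Reads labelled ambiguous, which entered no gene, were 0.17% to 0.20% of each library. Whether they include reads from these overlaps is not stated.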

How the data were processed

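Total RNA of day 7 embryoid bodies went into standard Illumina libraries, per the labels' protocols. STAR, HTSeq, DESeq and the build mm9 appear in the submitters' processing notes, with neither version nor role. Values in the deposited count files are whole numbers for each gene symbol, and rows that name no gene (55.5% to 56.0% of reads in no feature) entered neither library sizes nor tests. A further deposited table, per the file headers, holds the authors' fold ratio, log2 fold change and p-values, and was used only to look up which genes it lists.

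Genes were filtered with filterByExpr, scaled by TMM and tested with edgeR 4.0.16 (quasi-likelihood, two-sided, Benjamini-Hochberg over all genes, threshold 0.05) in R 4.3.3, without a replicate block. SE is the absolute log2 fold change over the square root of F, and 95% intervals use the fit's degrees of freedom. Pair ratios used CPM plus 0.5. DESeq2 1.42.0, limma 3.58.1 voom, other scalings and filters, a block and each library left out were alternatives. The scripts were tested on simulated data with changes larger than any among the 32 genes. That run does not show whether changes as small as theirs would be called. Leaving out 1 library takes the spread from the other group alone. The labels speak of independent pairs without saying what a number marks; across genes, deviations of libraries with equal numbers correlated at 0.236 (Pearson). Replicates were not duplicate deposits (chi-square per degree of freedom 35.7 and 24.3). The members, their roles, the other lists and the motifs were chosen with earlier results of these data known. Named were all 32 members, Trim33, a fixed set of G2/M regulators and the 2 genes with the smallest p in each other cell cycle list. Intervals on shares of promoters cover counting error only.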

Additional observations from a re-analysis of the deposited data

How the results depend on the processing

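Of the 32 genes, 0 were called in any of the 17 alternative fits, and their median log2 fold change stayed below 0, from −0.22 to −0.18 with all libraries and from −0.28 to −0.12 with 1 left out in edgeR. The number below 0 was 29 to 32 with all libraries. The replicate block gave a median of −0.19, 30 genes below 0 and a lowest adjusted p of 0.328, and it called 2 genes among all tested, of which 2 were called without the block, so it changed no call. Over all genes, edgeR called 2, its likelihood ratio test 169, DESeq2 141, limma voom 0, edgeR without a low-count filter 14, and edgeR with 1 library left out from 0 (without either Trim33-deficient library) to 91 (without Control replicate 2). DESeq2 with 1 library left out called 85 (without Control replicate 1), 54 and 48 (without Trim33-deficient replicates 1 and 2) and 677 without Control replicate 2, where 282 were lower and 395 higher, against 115 and 26 with all libraries. Signs of genes near 0 turned. Ndc80 was 0.0054 with DESeq2, 0.00031 with limma voom and 0.0052 with RLE scaling. Nuf2 and Racgap1 were −0.019 and −0.013 with upper-quartile scaling, and −0.023 and −0.019 with total counts only. With each library left out, the signs of 7 genes turned in at least 1 fit, with Ndc80 from −0.063 to 0.059 with edgeR and −0.060 to 0.070 with DESeq2, Nuf2 from −0.11 to 0.13 with edgeR and −0.10 to 0.13 with DESeq2, Racgap1 from −0.15 to 0.18 with edgeR and −0.15 to 0.19 with DESeq2. The next were Mad2l1 from −0.21 to 0.14 with edgeR and −0.21 to 0.14 with DESeq2, Kif20a from −0.16 to 0.071 with edgeR and −0.15 to 0.082 with DESeq2. The last were Pttg1 from −0.41 to 0.15 with edgeR and −0.40 to 0.16 with DESeq2, Cdc20 from −0.29 to 0.0015 with edgeR and −0.28 to −0.0018 with DESeq2. DESeq2 gave −0.057 for Nuf2 without Control replicate 1, 0.070 and 0.012 for Ndc80 and Mad2l1 without Control replicate 2, and 0.020 for Ndc80 without Trim33-deficient replicate 1. The cause was not tested. In the narrower promoter window, from 100 bases before to 50 after the start, 75% of windows of the 32 genes held a CHR (8.59% of all windows). CCAAT was in 71.4% (23.4% of all). An E2F motif was in 0% (of 28, Wilson 95% upper bound 12.1%), against 1.27% of all. The median of all genes tested was −0.035 under upper-quartile scaling and −0.042 under total counts only.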
